A study of Rattus norvegicus with 12 samples.

Results

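Genes for the protein subunits of the mitochondrial ribosome were followed in the prefrontal cortex of 12 rats. They were taken as all rows of the deposited gene table whose symbol starts with Mrpl or Mrps (with that capital), followed by a number and at most 1 letter from a to c. This gave 72 of 22431 rows and 71 gene names, 43 rows named for the large subunit (Mrpl) and 29 for the small subunit (Mrps). Of the 72 rows, 71 passed a filter of a mean of at least 0.5 FPKM (fragments per kilobase of transcript, scaled to library size) over the 12 libraries. The row left out was a second one named Mrpl42 (ENSRNOG00000025964, chromosome 13, 47644118 to 47644543), with 0 to 10 counts per library. Another 3 genes of the family are written in lower case in the table (mrpl9, mrpl11 and mrpl24), fell outside the rule and are given separately.

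The animals were wild-type rats, the offspring of dams in 3 groups, and were studied in early adolescence. The controls (4 animals) received saline. The group labelled PNO (4 animals) had postnatal and the group labelled IUO (4 animals) in utero oxycodone, each group from 2 dams with 2 animals per dam. Oxycodone, an opioid receptor agonist, was given at 15 mg/kg by oral gavage. The labels describe dosing before pregnancy, or after it up to postnatal day 21, and do not say which window belongs to PNO and which to IUO. Exposure after birth and in utero, as used below, is read from the group names alone. The labels also give no sex, and do not tie an animal to its dam, so a litter effect cannot be modelled and p-values may be too low. One poly(A) library was sequenced per animal.

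The mitochondrial ribosome makes the few proteins that the mitochondrial genome encodes, all of them core subunits of the respiratory chain and of ATP synthase. Its RNAs are transcribed inside the organelle, whereas every one of its proteins is encoded in the nucleus, made in the cytosol and imported. Some of these proteins have counterparts in the bacterial ribosome, and others are found only in mitochondria. Neurons rely on this system to power synaptic transmission, and inherited defects in several of the genes cause oxidative phosphorylation disease that affects the brain.

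Libraries held 49227533 to 60672246 counts each, and the members' rows had a median of 1645 counts, so that sampling of reads added little to its spread. Markers of cortical projection neurons were present in every library, among them Slc17a7, the vesicular glutamate transporter of cortical excitatory neurons, at 1340 to 2435 CPM (counts scaled to library size with TMM factors). Markers of 2 neighbouring regions differed within groups. The mean log2 CPM of 13 striatal markers was raised in control 2 (4.84), IUO 1 (5.07), IUO 2 (6.19) and PNO 2 (6.67), against 3.71 to 3.85 elsewhere. For the 7 of 9 olfactory bulb markers that passed the filter on low values it was raised in PNO 1 (3.59), PNO 3 (3.45), PNO 4 (3.72) and IUO 3 (4.49), against 0.62 to 1.45 elsewhere. Blood and choroid plexus markers differed within groups as well. The mean log2 CPM of 5 blood markers ran from 3.71 in control 4 to 6.43 in control 1. That of 2 choroid plexus markers ran from -1.21 in IUO 3 to 5.08 in IUO 2. The part of blood and choroid plexus in the members' values was not tested. In tissue RNA, fewer cells of a type and less RNA per cell cannot be told apart.

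Promoter sequences are shown first because nuclear respiratory factor 1 (NRF1), ETS-family factors such as GABPA, and YY1 are the regulators classically linked to nuclear genes for mitochondrial proteins. In RefSeq's GRCr8 assembly, 56 of the 71 kept members were matched by symbol to a window from 250 bases before to 50 bases after the gene start. Each motif was searched on both strands. The NRF1 motif GCATGCGC stood in 5 of the 56 windows (8.93%) and in 2.47% of the 33469 windows of all genes, the ETS motif CCGGAAG in 33.9% and 8.75%, and the YY1 motif AAGATGGC in 25% and 3.17%. The windows of all genes were not limited to expressed genes, whereas the members had passed the FPKM filter. The shares thus come from unlike sets. The motifs do not contain each other. At least 1 of the 3 was found in 30 of the 56 members, and CCGGAAG together with AAGATGGC in 6. For these combined counts the share over all windows was not computed, so they are a description only. In 10 members (17.9%), against 0.929% of all windows, AAGATGGC lay on the gene's own strand and began between the gene start and 30 bases after it. These members were Mrpl37, Mrpl42, Mrpl46, Mrpl49, Mrps7, Mrps10, Mrps18a, Mrps18b, Mrps27 and Mrps30. The windows below were chosen after the search, to show each motif, with the matches in capitals on the strand of the gene, 5′ to 3′. Mrps18b (chr20:2842756-2843055, plus strand) holds all 3 motifs, Mrps18a (chr9:22367331-22367630, minus strand) has an ETS motif before and a YY1 motif at its start, Mrpl32 (chr17:55260401-55260700, plus strand) has NRF1 and YY1 motifs, and Mrpl48 (chr1:164351327-164351626, minus strand) has ETS and YY1 motifs. A match of letters is a description of the window and not evidence that the factor binds there.
Mrps18b: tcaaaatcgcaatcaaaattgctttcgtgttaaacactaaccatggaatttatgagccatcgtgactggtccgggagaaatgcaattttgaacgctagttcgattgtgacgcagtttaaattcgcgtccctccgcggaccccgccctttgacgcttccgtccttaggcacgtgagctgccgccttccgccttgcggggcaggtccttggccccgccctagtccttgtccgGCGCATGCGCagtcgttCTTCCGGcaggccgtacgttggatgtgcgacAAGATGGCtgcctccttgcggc
Mrps18a: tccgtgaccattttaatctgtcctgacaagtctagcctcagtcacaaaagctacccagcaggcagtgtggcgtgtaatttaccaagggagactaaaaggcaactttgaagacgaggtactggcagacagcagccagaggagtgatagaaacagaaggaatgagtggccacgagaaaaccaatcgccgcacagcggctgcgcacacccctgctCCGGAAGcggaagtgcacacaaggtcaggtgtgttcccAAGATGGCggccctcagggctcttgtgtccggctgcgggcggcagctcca
Mrpl32: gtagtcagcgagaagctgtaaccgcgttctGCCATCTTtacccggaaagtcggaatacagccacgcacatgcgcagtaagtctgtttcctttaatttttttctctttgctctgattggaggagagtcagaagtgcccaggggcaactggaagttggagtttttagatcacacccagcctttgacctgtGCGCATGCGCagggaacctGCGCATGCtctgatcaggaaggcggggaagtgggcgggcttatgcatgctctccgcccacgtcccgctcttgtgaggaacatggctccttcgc
Mrpl48: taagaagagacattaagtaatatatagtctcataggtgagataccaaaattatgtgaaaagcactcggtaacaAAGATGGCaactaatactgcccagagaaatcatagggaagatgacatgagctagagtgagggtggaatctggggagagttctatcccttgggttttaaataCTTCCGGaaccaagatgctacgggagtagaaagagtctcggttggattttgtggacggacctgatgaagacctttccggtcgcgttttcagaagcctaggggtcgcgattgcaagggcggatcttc

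The members were moderately expressed. On the FPKM scale, which allows genes to be compared per length, their median was 18.2 over the 12 libraries, against 6.16 for all 14170 genes kept, 93.3 for 87 cytosolic ribosomal protein genes and 76.9 for 72 nuclear-encoded respiratory chain subunit genes. The highest members were Mrpl17 (53.0 FPKM), which sits near the exit of the tunnel for the new peptide, Mrps18a (49.9 FPKM), Mrpl49 (47.9 FPKM), Mrpl27 (45.7 FPKM), a protein near the peptidyl transferase centre, and Mrpl54 (43.4 FPKM). The lowest were Mrps17 (2.10 FPKM), Mrpl47 (4.43 FPKM), Mrps18c (5.36 FPKM), Mrpl40 (5.73 FPKM) and Mrpl52 (6.46 FPKM), whose row the table annotates as a long non-coding RNA. The value of Mrps17 rests on a row that lies inside another gene model, described with the comparisons. Among the genes named for the large subunit, where it does not enter, the highest was 12-fold above the lowest. The 42 kept genes named for the large subunit had a median of 16.7 FPKM and the 29 named for the small subunit 19.7 FPKM. Genes of bacterial families had medians of 16.0 FPKM (24 large subunit) and 20.2 FPKM (18 small subunit, with Mrps18a counted there by its name), and mitochondria-specific ones 19.1 FPKM (18 large subunit) and 19.7 FPKM (9 small subunit). Names do not always give the subunit: the protein of Mrps30 sits in the large subunit, that of Mrps18a too, and that of Mrps36 has been assigned to the alpha-ketoglutarate dehydrogenase complex.

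**Figure D1:**
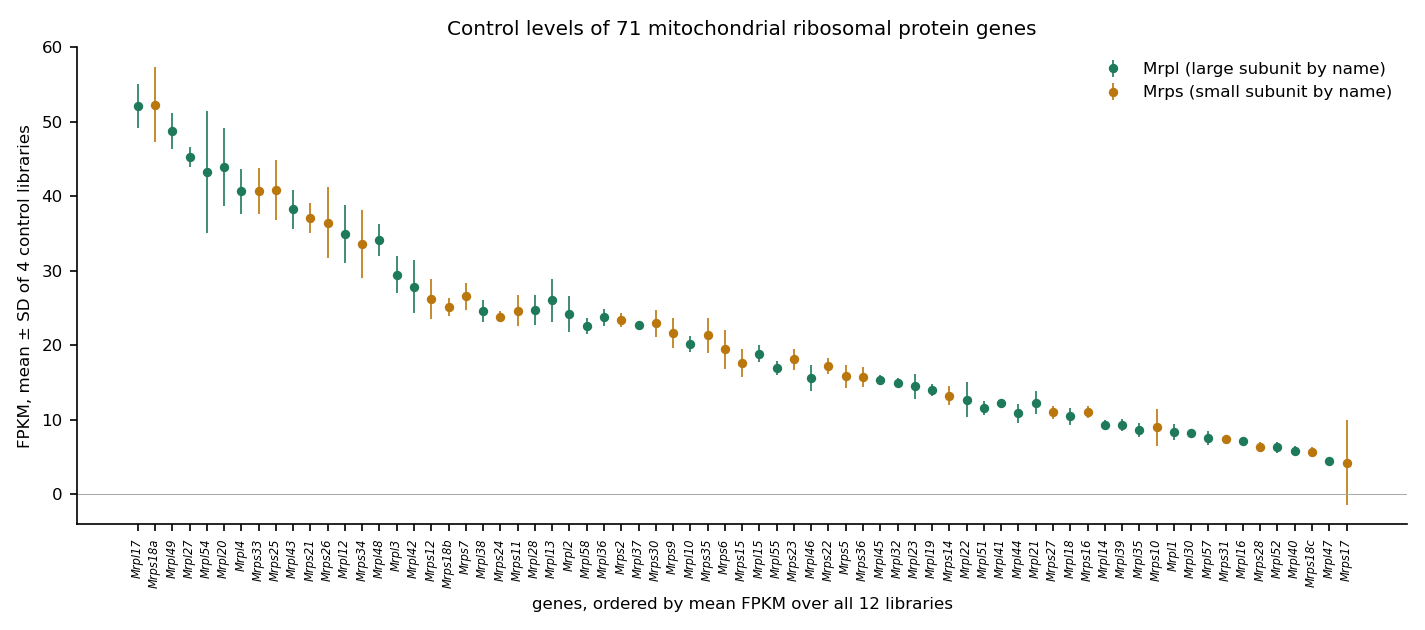
FPKM of each of the 71 kept genes in the 4 control libraries (points, mean; bars, SD), ordered by the mean over all 12 libraries; green, Mrpl genes, orange, Mrps genes. Large and small subunit genes are mixed along the whole range, and the bar of Mrps17 is wider than its mean.

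Levels varied little between control animals. The SD of log2 CPM between control libraries had a median of 0.118 over the members, against 0.174 over all genes kept. It was 0.117 in PNO (all genes 0.167) and 0.253 in IUO (all genes 0.225). The steadiest control values were those of Mrpl27, which measured 36.2, 36.9, 36.5 and 36.2 CPM. Mrps10 was among the least steady, with 16.1, 11.1, 21.8 and 14.3 CPM. Without the library IUO 4, the median SD of the members in IUO was 0.113.

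IUO 4 stood apart from the other 11 libraries. There, 49 of the 71 members had their highest value of all libraries, and 0 their lowest. The median of the members' log2 CPM, each taken against its own mean over the 12 libraries, was 0.37 in IUO 4 and 0.05, -0.11 and -0.10 in IUO 3, IUO 2 and IUO 1. Among 70 members (Mrps17 left out), 65 were above their mean in IUO 4, 20 of them by more than 0.5. The largest deviations were those of Mrpl27 (0.91), Mrpl54 (0.88), Mrpl28 (0.85), Mrps6 (0.82) and Mrps35 (0.79). Mrps10 (-0.25), Mrps22 (-0.15), Mrpl39 (-0.14), Mrps27 (-0.07) and Mrps2 (-0.03) were below their mean there. Mrpl28, Mrps2, Mrps6, Mrps22 and Mrps27 are named after their values were seen. The higher values in IUO 4 were thus broad but uneven: Mrpl27 measured 66.7 CPM in IUO 4 and 29.5, 31.0 and 38.9 CPM in the other IUO libraries, while Mrpl17 measured 68.2 CPM against 65.9, 68.1 and 69.6 CPM.

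**Figure D2:**
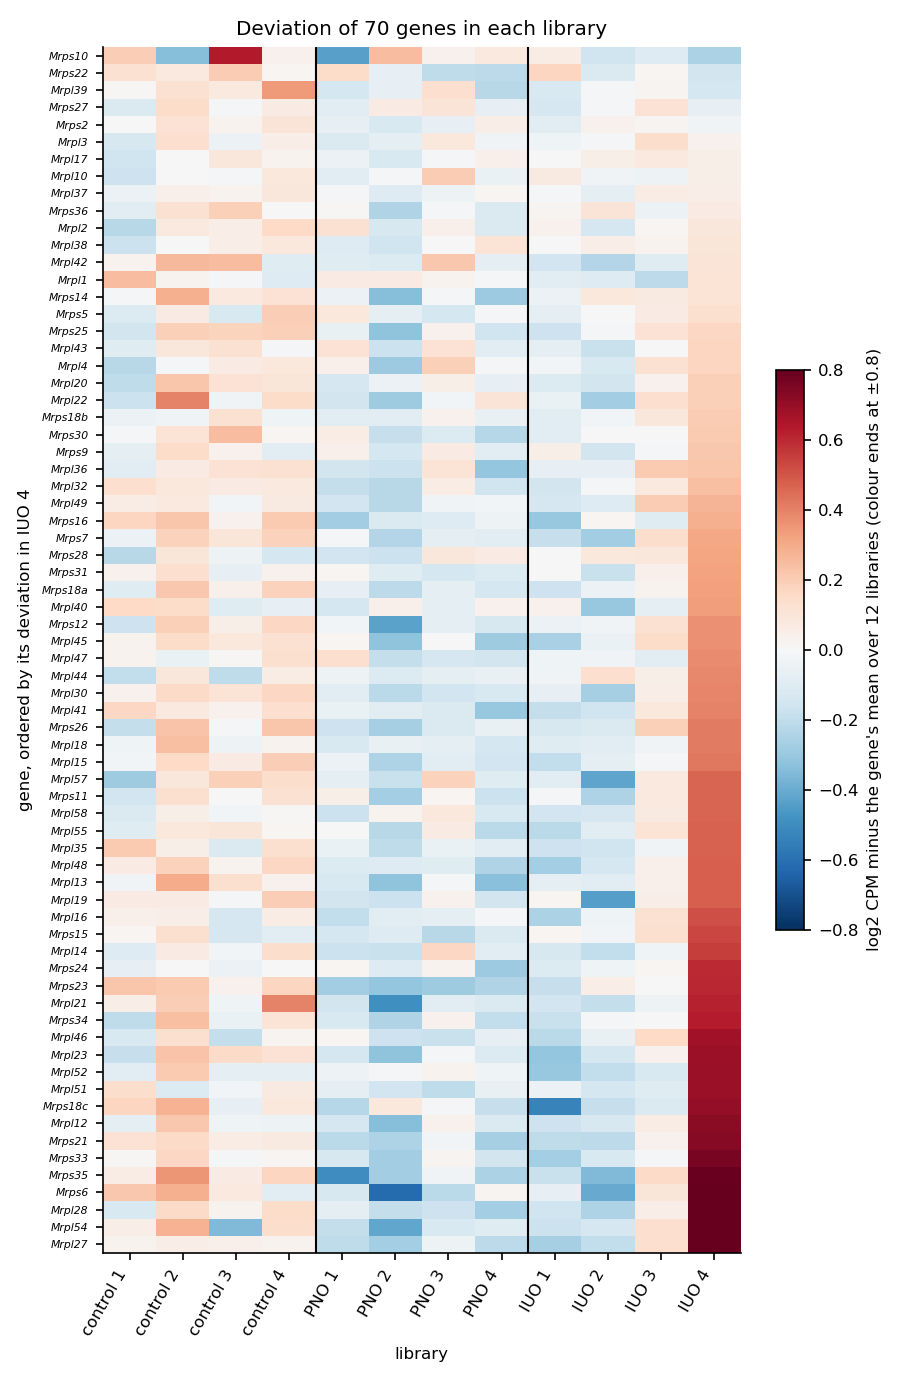
Log2 CPM of 70 members (rows; Mrps17, whose row lies inside another gene model, is left out) minus the gene's own mean, in each of the 12 libraries (columns), with red for higher and blue for lower. The column of IUO 4 is red for 65 genes, and the columns PNO 1, PNO 2, PNO 4, IUO 1 and IUO 2 are mostly blue.

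At the other end, PNO 2 was the lowest library for 28 of the 71 members and the highest for 0, with a median deviation of -0.17. The other PNO libraries had medians of -0.09, -0.02 and -0.11 (PNO 1, PNO 3 and PNO 4). The controls had -0.04, 0.13, 0.03 and 0.08 (control 1 to control 4), so PNO 3 lay above control 1 and the groups overlapped. Members above their own median over the 12 libraries numbered 31, 65, 48 and 58 of 71 in control 1 to control 4, 19, 8, 32 and 16 in PNO 1 to PNO 4, and 10, 19, 55 and 65 in IUO 1 to IUO 4. The median of all genes stayed near 0 in every library (-0.0041 to 0.0093).

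Other gene sets were also highest in IUO 4, and their order of the other libraries was not always that of the members. The median deviation of cytosolic ribosomal protein genes was 0.62 in IUO 4 and -0.22 in PNO 2, with -0.26 in IUO 1 and -0.27 in IUO 2, the lowest of the 12. That of respiratory chain genes was 0.41 in IUO 4 and -0.24 in PNO 2. Gene length moved with the members' medians. Members are shorter than most genes, with a median effective length (computed from the deposited counts and FPKM) of 1620 bases against 3111 over all genes kept. Across all genes of a library, the rank correlation of deviation with length was -0.35 in IUO 4, -0.28 in control 2 and -0.21 in control 4, the libraries with the highest member medians, and 0.31 in PNO 2, the library with the lowest. Among the 70 members themselves, it was -0.10 in IUO 4 and 0.37 in PNO 2. Mitochondrially encoded genes took 13.3% of counts in IUO 4, the lowest share of the 12 libraries (highest 17.5%). Striatal and bulb markers were not raised in IUO 4 (3.74 and 1.01). These rank correlations run over genes, which are not replicates, and the part of gene length in the members' levels was tested only by removing a length trend, given with the comparisons.

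**Figure D3:**
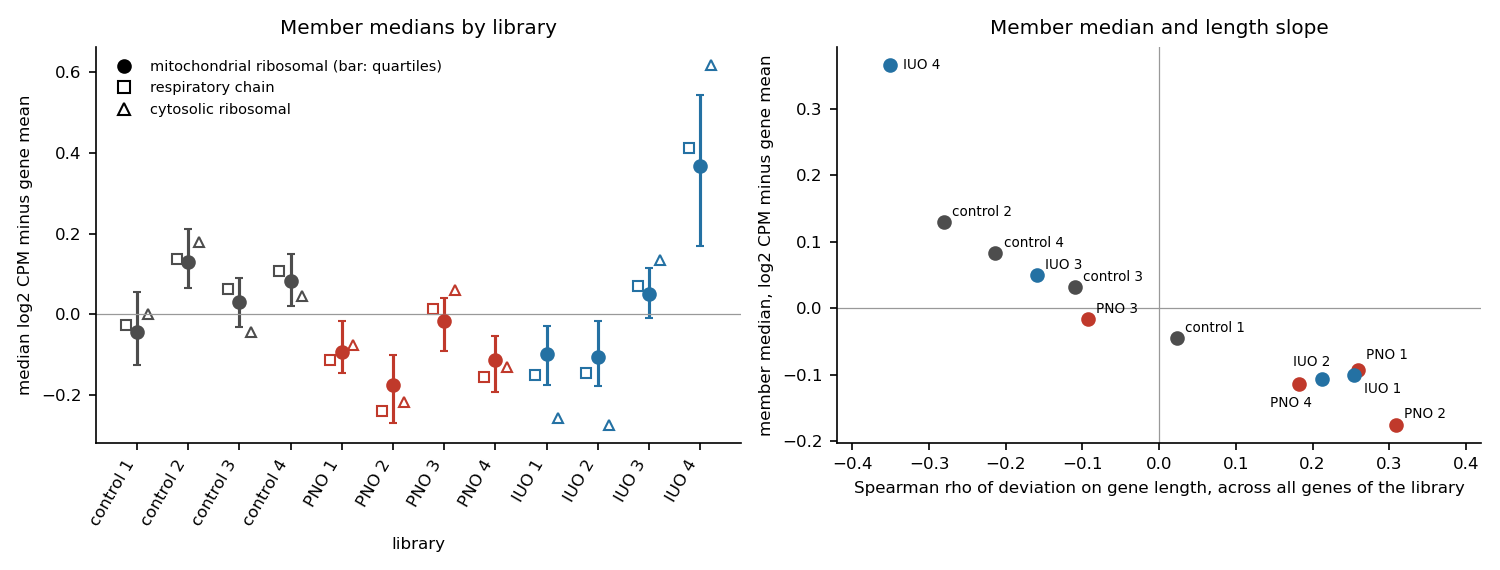
Left, median deviation (log2 CPM minus the gene mean) of the members in each library with the quartiles of the members as bars, beside the medians of respiratory chain genes (squares) and cytosolic ribosomal protein genes (triangles). Right, the members' median against the rank correlation of deviation with gene length across all genes of the same library; IUO 4 is at the upper left and PNO 2 at the lower right.

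PNO was compared with control to ask what exposure after birth left in the adolescent cortex. Most members were lower in sign in PNO, and 0 passed the test. The log2 fold change was negative for 68 of 71 members, against 48.8% of all 14170 genes, and its median was -0.15, a median ratio of 0.899, against 0.0068 over all genes. By edgeR's quasi-likelihood test with Benjamini-Hochberg adjustment over all genes, 0 members and 0 of 14170 genes (0%) had an adjusted p under 0.05. DESeq2 called 0 members and 117 genes (0.826%). Without IUO 4, which enters the shared estimate of spread, edgeR called 19 genes and 0 members. At an unadjusted p under 0.05, 6 members were lower (background 4.22%) and 0 were higher (background 6.82%). In 0 members did every PNO library lie above every control library (background 5.17%). In 14 members every PNO library lay below every control library, where 4.66% of all genes did: Mrpl15, Mrpl18, Mrpl21, Mrpl27, Mrpl30, Mrpl32, Mrpl41, Mrpl45, Mrpl48, Mrps14, Mrps16, Mrps21, Mrps23 and Mrps35. Since members share the library shifts described above, they are not independent of each other.

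Among small subunit genes, Mrps23, a mitochondria-specific protein, had the smallest p. It measured 27, 26.8, 23.6 and 26 CPM in control 1 to 4 and 19.0, 18.6, 19.0 and 19.6 CPM in PNO 1 to 4. The groups did not overlap, and PNO 3, whose member median was near 0, was as low as the other PNO libraries. The log2 fold change was -0.44 (SE 0.14, edgeR adjusted p = 0.355, DESeq2 adjusted p = 0.147). Without IUO 4 the edgeR adjusted p was 0.062, and with the marker covariates the log2 fold change was -0.11 (adjusted p = 1). Mrps14, a bacterial-family protein of the small subunit head, measured 23.5, 28.8, 24.95 and 25.6 CPM in control and 22.9, 18.7, 23.5 and 19.3 CPM in PNO, with PNO 3 just under the lowest control. Its log2 fold change was -0.29 (SE 0.10, edgeR adjusted p = 0.393). Mrps16, whose loss causes respiratory chain deficiency in humans, measured 20.7, 21.4, 18.7 and 21.2 CPM in control and 15.1, 16.9, 17.0 and 17.8 CPM in PNO. All PNO libraries were lower, with a log2 fold change of -0.29 (SE 0.12, edgeR adjusted p = 0.421). Mrps25 overlapped between groups, at 41.9 ± 4.52 (SD, n = 4) CPM in control and 35.7 ± 3.71 CPM in PNO. The decoding-centre gene Mrps12 did too, at 23.7 ± 2.57 and 20.3 ± 2.43 CPM (log2 fold change -0.22, SE 0.13).

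Among large subunit genes, Mrpl30 measured 28.5, 30.9, 29.98 and 31.1 CPM in control and 26.3, 23.9, 25.01 and 25.6 CPM in PNO, with no overlap (log2 fold change -0.26, SE 0.12, edgeR adjusted p = 0.452). Mrpl13 measured 32.2, 40.3, 35.9 and 33.6 CPM in control and 30.2, 26.3, 32.5 and 26 CPM in PNO, where PNO 3 passed control 1 (log2 fold change -0.31, SE 0.13, edgeR adjusted p = 0.439). Mrps30, a large subunit protein despite its name, was at 38.0 ± 3.18 CPM in control and 33.0 ± 2.96 CPM in PNO. Mrpl45, which helps to hold the ribosome at the inner membrane, measured 40.2 to 43.7 CPM in control and 31.6 to 39.8 CPM in PNO, without overlap (log2 fold change -0.24, SE 0.13, edgeR adjusted p = 0.511).

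Members with a known role differed by various amounts, and none passed the test. In the stalk that recruits translation factors, Mrpl10 was at 39.4 ± 2.76 CPM in control and 40.4 ± 3.88 CPM in PNO, and Mrpl12 at 59.7 ± 5.73 and 53.7 ± 5.58 CPM. Mrpl44, a protein with a ribonuclease III fold whose defects cause cardiomyopathy, was at 24.7 ± 2.73 and 24.4 ± 0.486 CPM. Mrpl58, a peptidyl-tRNA hydrolase that rescues stalled ribosomes, was at 25.6 ± 1.21 and 25.2 ± 2.11 CPM. Of the 3 relatives of bacterial S18, Mrps18a was at 49.9 ± 4.89 and 43.1 ± 2.00 CPM, Mrps18b at 34.0 ± 1.88 and 32.8 ± 1.38 CPM and Mrps18c at 15.5 ± 1.56 and 13.5 ± 1.38 CPM. Mrps36 was at 28.5 ± 2.46 and 25.7 ± 2.01 CPM. The log2 fold changes of the 3 S18 relatives ran from -0.21 to -0.05. For the 8 genes the edgeR adjusted p was 0.495 to 0.970. The direction for Mrpl10, Mrpl12, Mrpl44, Mrpl58, Mrps18b and Mrps18c changed under at least 1 other setting, given in the closing section.

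The median log2 fold change was -0.14 over 42 genes named for the large subunit and -0.18 over 29 named for the small one. It was -0.16 and -0.19 for bacterial-family genes of the large and small subunit and -0.10 and -0.18 for mitochondria-specific ones. Respiratory chain genes had a median of -0.20 and cytosolic ribosomal protein genes -0.15. Marker levels differed between these groups too: 3 of the 4 PNO libraries had raised bulb markers, and the fourth had raised striatal markers. Outside PNO, the member medians of libraries with raised markers went both ways. They were 0.13 in control 2, -0.10 in IUO 1 and -0.11 in IUO 2 (striatal), and 0.05 in IUO 3 (bulb). With both marker scores as covariates the members' median was -0.0035 and 36 of 71 were negative. It was -0.24 (67 negative) without the 4 libraries with raised bulb markers, which leaves PNO 2 alone of its group, -0.097 (58 negative) without the 4 with raised striatal markers, and -0.085 (55 negative) with the length trend removed from each library. Because 1 of the 2 scores is raised in every PNO library and in 1 of 4 controls, the scores and the exposure cannot be fully told apart. Among other cell types, 5 of 6 microglial markers were negative in PNO (median -0.28, summed level 222 to 284 CPM in control and 210 to 228 CPM in PNO), as were 5 of 6 astrocyte markers (median -0.15, 2216 to 2558 and 2039 to 2261 CPM). The edgeR test called 0 of these markers, and their part in the members' values was not tested. Of all genes, 48.8% were negative in this comparison.

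**Figure D4:**
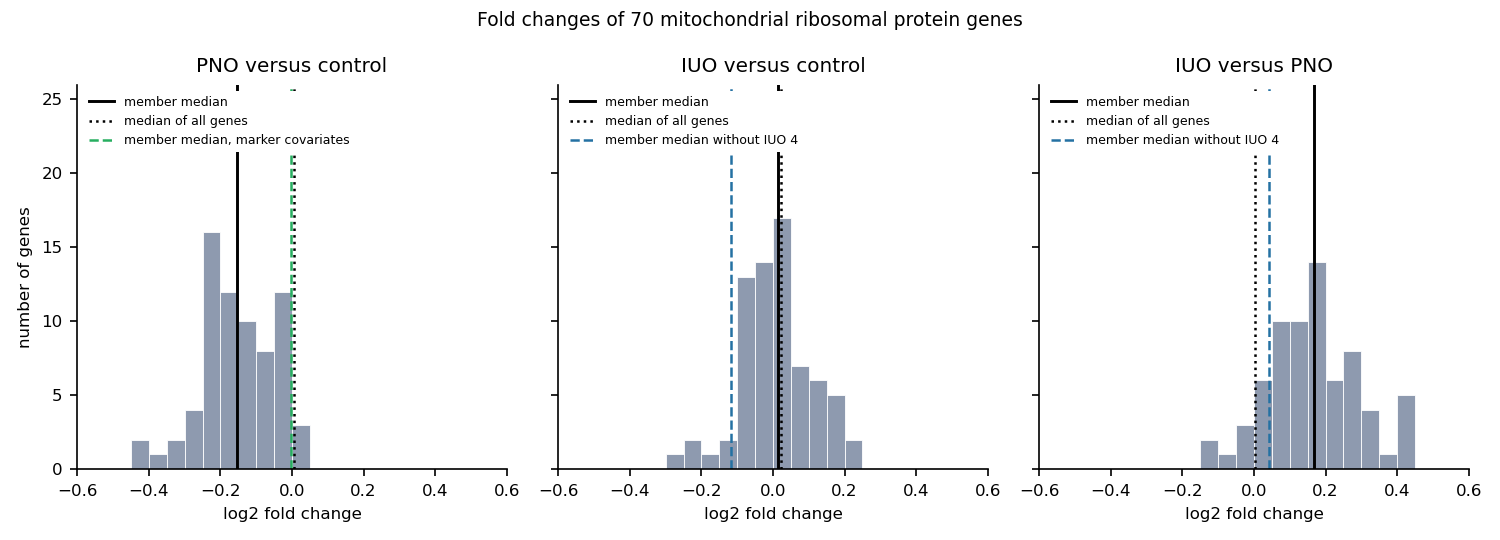
Number of members by log2 fold change in each comparison (70 members; Mrps17 is left out of the bars). Solid line, member median; dotted line, median of all genes; dashed line, member median with marker covariates (green) or without IUO 4 (blue). The PNO bars lie mostly below 0, and the medians of both IUO panels move down without IUO 4.

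Mrps17 had the widest fold change, and its row is not a clean measure of the gene. In control 1 to 4 it had 0, 386, 74 and 1261 counts, in PNO 41, 49, 81 and 0, and in IUO 209, 114, 281 and 34. Its log2 fold change in PNO was -3.37 (SE 1.30, edgeR adjusted p = 0.412), and without control 4 it was -1.86. The gene (ENSRNOG00000000926, chromosome 12, 26948730 to 26951737, minus strand) lies inside another gene model on the same strand (ENSRNOG00000066020, 26948347 to 26951809). That row had 1879, 1689, 2095 and 974 counts in the controls, lowest where Mrps17 was highest. Summed, the rows gave 1600 to 2235 counts in all 12 libraries. The sum measured 35.8 ± 3.68 CPM in control, 33.6 ± 2.74 CPM in PNO and 34.2 ± 4.47 CPM in IUO. Its log2 fold change in PNO was -0.09 (SE 0.11, edgeR adjusted p = 0.771), and 5 rather than 6 members were then lower at an unadjusted p under 0.05. Of the 71 members, 26 overlap another gene in the table, 5 of them on the same strand. Mrps17, Mrpl27 (Lrrc59), Mrpl14 (Aars2) and Mrps6 (Kcne2) lie wholly inside the other gene. Mrps34 overlaps Nme3 in part, and Mrps6 also overlaps Slc5a3 in part. The other 21 overlap a gene on the opposite strand only, Mrps11 and Mrpl46 each other among them. Whether strand was used in counting is not given in the sources used here, so values of overlapping genes are uncertain.

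**Figure D5:**
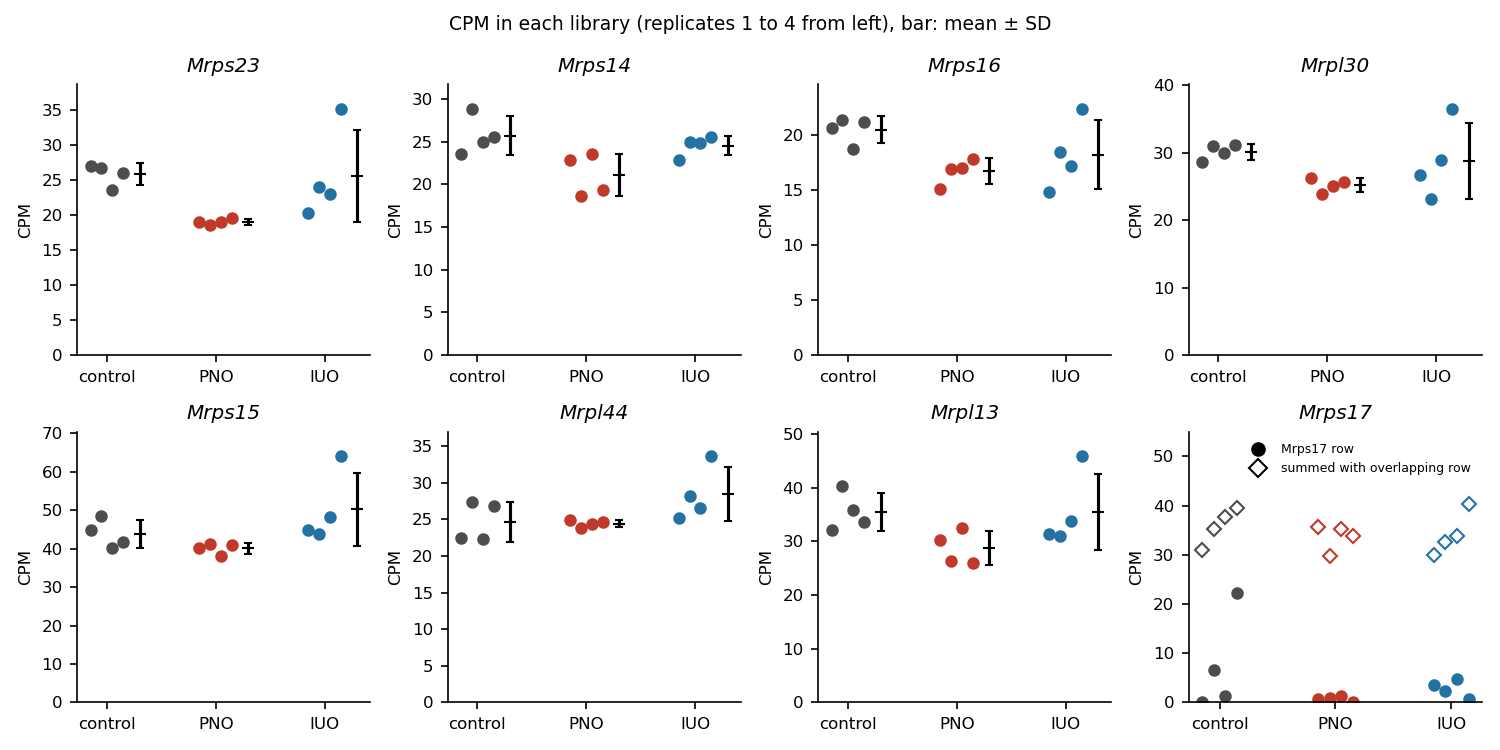
CPM in each library for 8 members (points, replicates 1 to 4 from left; bars, mean ± SD, n = 4; the vertical axes start at 0). The PNO points of Mrps23, Mrps14, Mrps16 and Mrpl30 lie below all control points, IUO 4 is the highest IUO point in all panels but that of Mrps17, and the summed Mrps17 locus (diamonds) is level across groups.

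The comparison of IUO with control asked the same of exposure in utero. Members were on both sides of 0: 34 of 71 had a negative log2 fold change (all genes 43.6%), with a median of 0.01 (all genes 0.02). By edgeR 0 members and 0 genes (0%) passed, and 0 members had an unadjusted p under 0.05 (background 1.71% lower and 2.31% higher). DESeq2 called 0 members and 11 genes (0.0776%). The smallest adjusted p of a member was 0.998. In 0 members were all IUO libraries above or all below the controls (background 1.15% and 1.03%). The members with the smallest p were Mrpl44, Mrpl42, Mrpl39, Mrps15, Mrps28, Mrps10, Mrps16 and Mrpl46. Mrpl44 measured 22.4, 27.3, 22.3 and 26.8 CPM in control and 25.2, 28.2, 26.6 and 33.6 CPM in IUO, with overlap (log2 fold change 0.20, SE 0.11). Mrpl42 measured 39.2, 45.9, 45.6 and 36.0 CPM in control and 34.5, 32.7, 35.9 and 41.3 CPM in IUO (log2 fold change -0.21, SE 0.11). Mrpl39 was at 15.2 ± 1.55 CPM in control and 13.2 ± 0.738 CPM in IUO, Mrps15 at 43.8 ± 3.62 and 50.2 ± 9.41 CPM, and Mrps28 at 9.91 ± 0.948 and 11.4 ± 1.12 CPM. Mrps10 was at 15.8 ± 4.49 and 13 ± 1.19 CPM, Mrps16 at 20.5 ± 1.22 and 18.2 ± 3.15 CPM, and Mrpl46, which overlaps Mrps11 on the other strand, at 24 ± 2.4 and 27.9 ± 8 CPM.

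The balance of signs in IUO rested on single libraries. Without IUO 4, 62 of 71 members were negative, with a median of -0.12. Without the 4 libraries with raised striatal markers, which leaves IUO 3 and IUO 4, 9 were negative, with a median of 0.17. Mrpl46 went from a log2 fold change of 0.22 to 0.0051 without IUO 4, and Mrps15 from 0.20 to 0.06. The members named for their small p in this comparison all kept their sign with each library left out. Mrpl42 (-0.28 to -0.16), Mrpl39 (-0.25 to -0.14), Mrps10 (-0.42 to -0.09) and Mrps16 (-0.29 to -0.08) stayed negative. Mrpl44 (0.11 to 0.26), Mrps28 (0.13 to 0.26), Mrps15 (0.06 to 0.26) and Mrpl46 (0.0051 to 0.33) stayed positive.

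The comparison of IUO with PNO asked whether the exposure windows differ. Members were mostly higher in IUO: 6 of 71 had a negative log2 fold change (all genes 49.2%), with a median of 0.17 (all genes 0.0036). By edgeR 0 members and 0 genes (0%) passed, and DESeq2 called 0 members and 8 genes (0.0565%). At an unadjusted p under 0.05, 3 members were higher (background 3.67%) and 0 lower (background 3.06%), and in 3 members every IUO library lay above every PNO library (background 1.85%) and in 0 below (background 1.78%). Mrps23 measured 20.3, 24.0, 23.0 and 35.2 CPM in IUO, all above the PNO libraries, for a log2 fold change of 0.43 (SE 0.14, edgeR adjusted p = 0.714). Mrps15 measured 44.8, 43.7, 48.3 and 64.0 CPM in IUO and 40.2, 41.1, 38.0 and 40.8 CPM in PNO, also without overlap (log2 fold change 0.33, SE 0.12, edgeR adjusted p = 0.714). Mrpl44 was at 28.4 ± 3.67 CPM in IUO and 24.4 ± 0.486 CPM in PNO, again without overlap (log2 fold change 0.22, SE 0.11). Mrpl13 overlapped, with 31.3, 31.0, 33.7 and 45.8 CPM in IUO (log2 fold change 0.30, SE 0.13, edgeR adjusted p = 0.714). Mrps12 (0.27), Mrps14 (0.22), Mrpl54 (0.44) and Mrps35 (0.43) overlapped too. Without IUO 4 the members' median was 0.04 with 18 negative, and Mrps23 was at 0.24, Mrps15 at 0.19, Mrpl13 at 0.16, Mrpl54 at 0.15 and Mrps35 at 0.14. Markers of other cell types also differed in sign between IUO and PNO. All 6 oligodendrocyte markers were positive (median 0.27, summed level 6637 to 15898 CPM in IUO and 7127 to 11916 CPM in PNO), as they were in IUO against control (median 0.27). All 7 meningeal markers were negative (median -0.26, 214 to 312 CPM in IUO and 231 to 553 CPM in PNO). Of 6 microglial markers, 4 were positive (median 0.24), near the share of all genes (7194 of 14170 positive). The edgeR test called 0 of these cell type markers, and the part of these cell types in the members' values was not tested. The comparisons share libraries, so a member low in PNO appears in both comparisons that use PNO.

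The 3 genes written in lower case were near the members in level and change. mrpl11, whose protein forms the base of the stalk, measured 25.8, 34.2, 26.3 and 29.5 CPM in control, 22.3, 26.6, 25.2 and 24.8 CPM in PNO and 26, 25.6, 26.4 and 33.8 CPM in IUO. mrpl9 was at 34.9 ± 2.34 CPM in control, 34.9 ± 1.37 CPM in PNO and 37.5 ± 6.59 CPM in IUO, and mrpl24 at 31.8 ± 1.72, 29.1 ± 2.68 and 30.8 ± 4.93 CPM. Each had its highest IUO value in IUO 4, and 0 of them passed the edgeR test in the 3 comparisons.

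Other genes of mitochondrial translation were read from 7 lists, of which edgeR called 0 members in each comparison. Of 5 ribosomal proteins not named Mrp, 4 were negative in PNO against control, with a median log2 fold change of -0.14. Dap3, a GTP-binding protein of the small subunit, was at 38.9 ± 2.48 CPM in control, 35.3 ± 1.25 CPM in PNO and 37.9 ± 5.61 CPM in IUO. Chchd1 was at 27.7 ± 2.24 CPM in control and 23.1 ± 3.06 CPM in PNO. Of 29 assembly factors tested, 19 were negative in PNO (median -0.06) and 14 in IUO against control (median 0.0001). Mettl15, a methyltransferase for the RNA of the small subunit, was at 3.25 ± 0.692 CPM in control, 2.17 ± 0.136 CPM in PNO and 2.07 ± 0.664 CPM in IUO. Its log2 fold changes were -0.58 (SE 0.23, edgeR adjusted p = 0.412) in PNO and -0.65 (SE 0.23, edgeR adjusted p = 0.998) in IUO, and the PNO libraries did not overlap the controls. Of 18 translation factors, 13 were negative in PNO (median -0.08) and 10 in IUO (median -0.02). Taco1, an activator of cytochrome oxidase subunit translation, was at 4.96 ± 0.400 CPM in control and 3.77 ± 0.102 CPM in PNO, and Slirp, which stabilises mitochondrial messenger RNA, at 12 ± 1.46 and 9.28 ± 0.319 CPM, both without overlap. Pdf, the deformylase that acts on the first residue of new chains, was at 14.1 ± 1.66 CPM in control and 17.6 ± 3.36 CPM in IUO.

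Of 8 regulators of mitochondrial biogenesis tested, 2 were negative in PNO against control (median 0.12), 4 in IUO against control (median 0.03) and 8 in IUO against PNO (median -0.15). Pprc1, a coactivator related to Ppargc1a, was at 19.9 ± 1.56 CPM in control, 25.5 ± 1.28 CPM in PNO and 21.1 ± 4.55 CPM in IUO, with all PNO libraries above the controls (log2 fold change 0.35, SE 0.14, edgeR adjusted p = 0.417). In the same order of groups, Nrf1 was at 16.5 ± 1.97, 16.1 ± 1.95 and 13.7 ± 1.19 CPM, and Myc at 4.07 ± 0.555, 5.81 ± 1.43 and 4.62 ± 1.01 CPM. Of 10 genes for mitochondrial DNA upkeep and transcription, 6 were negative in PNO (median -0.09) and 4 in IUO (median 0.04), with Ssbp1, the single-stranded DNA binding protein, at 14.0 ± 1.62, 11.8 ± 1.07 and 12.7 ± 1.57 CPM. The 13 protein genes of the mitochondrial genome, which this ribosome translates, had negative log2 fold changes in 11 of 13 for PNO (median -0.17) and 13 of 13 for IUO (median -0.13). Mt-atp6 was at 22845 ± 733 CPM in control, 19808 ± 1383 CPM in PNO and 19334 ± 1789 CPM in IUO, with both exposed groups below all controls (edgeR adjusted p = 0.448 and 0.998). Mt-nd3 was at 956 ± 90.1, 756 ± 37.2 and 892 ± 208 CPM. In IUO 4, where members were highest, the summed share of these transcripts was lowest, but not each transcript was. Mt-atp6, Mt-atp8, Mt-co1, Mt-cyb, Mt-nd1, Mt-nd2, Mt-nd4, Mt-nd4l and Mt-nd5 had their lowest CPM of the 12 libraries there. Mt-co2 (16590 CPM) and Mt-nd3 (1187 CPM) had their highest there, and Mt-co3 and Mt-nd6 lay between.

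Of 19 mitochondrial aminoacyl-tRNA synthetases tested, 9 were negative in each exposed group (medians 0.01 and 0.02). At an unadjusted p under 0.05 by edgeR in PNO against control, 1 was lower (background 4.22%) and 3 were higher (background 6.82%). Tars2, the threonyl enzyme, was at 42.6 ± 2.61 CPM in control and 34.6 ± 2.18 CPM in PNO, without overlap (log2 fold change -0.30, SE 0.12, edgeR adjusted p = 0.417).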

How the data were processed

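The authors deposited 1 gene table with whole-number counts and FPKM values per library, per the file headers. The submitters' processing notes name HISAT2 and StringTie. Not given in the sources used here are versions, settings, genome build and annotation, and positions are those of the table.

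A mean of 0.5 FPKM or more was required, which kept 14170 genes. The counts of all 12 libraries were fitted in 1 model with 3 groups by edgeR's quasi-likelihood test (TMM factors, two-sided, Benjamini-Hochberg over all genes kept, threshold 0.05). Values are CPM as mean ± SD (n = 4). Log2 CPM used a prior count of 2. Tools were edgeR 4.0.16, DESeq2 1.42.0 and limma 3.58.1 in R 4.3.3, and matplotlib 3.10.9 in Python 3.11.15. The test was tried on simulated data for PNO against control. It recovered 86 of 100 genes changed 2-fold and 25 of 100 changed 1.5-fold, with 7 false calls. The members' median ratio of 0.899 in PNO is a smaller change than either, and recovery at that size was not tried.

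The members, gene lists and tests were chosen with earlier results of these data known. Named genes are the 8 members with the smallest unadjusted p in each comparison, the 5 highest and 5 lowest by FPKM, members with a set role, and up to 2 genes with the smallest p of each pathway list per comparison. A pathway gene that this rule names is not reported here. Others are said to be named after their values were seen, or are counted whole.

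Alternatives were DESeq2, limma on log2(FPKM + 0.5), with 0.1 and 1 as other pseudocounts, median-of-ratios size factors, no filter, a filter at a mean FPKM of 2, only the 2 groups compared, the replicate number as a block, striatal and bulb scores as covariates, leaving out libraries with raised markers, removal of a length trend, and leaving out each library. Summing Mrps17 with its overlapping row was added after seeing the data.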

Additional observations from a re-analysis of the deposited data

Results flagged for a closer look

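Among the named members, 7 single libraries lay far from the other 3 of their group, by the gap to the nearest library over the range of the group (Dixon's 95% limit). In control, these were Mrps18b in control 3 (36.8 CPM, high), Mrps25 in control 1 (35.1 CPM, low), and Mrpl12 (68.3 CPM) and Mrpl52 (31.1 CPM) in control 2, both high. In PNO, they were Mrpl47 in PNO 1 (26.9 CPM, high) and Mrpl42 in PNO 3 (44.6 CPM, high). In IUO, it was Mrpl47 in IUO 4 (31.9 CPM, high). Chance flags about 1 in 20 groups. Over all 71 members, 6 groups in control, 5 in PNO and 3 in IUO passed the limit, where 1 in 20 gives 3.55. IUO 4 was the highest library for 49 members.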

How the results depend on the processing

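Under every alternative run, 0 members were called in the 3 comparisons. The count of genes called over the whole table changed. It was 117, 11 and 8 by DESeq2 (PNO against control, IUO against control, IUO against PNO), 1 by limma at each of the 3 pseudocounts in PNO against control, and 11 there with only the 2 groups compared. Without the 4 libraries with raised bulb markers it was 3, 1 and 3, and without the 4 with raised striatal markers 4 in IUO against control and 3 in IUO against PNO. Leaving out each library gave 0 to 19, 0 to 1 and 0 to 1, with 19 without IUO 4. With the replicate number as a block, the members' medians were -0.15, -0.01 and 0.16, and no call changed. All 12 same-numbered pairs of libraries had a positive correlation of deviations from the group mean (r from 0.0153 to 0.411, 4 of them over 0.1). Pairs with different numbers ran from -0.30 to 0.20. With their own number, 8 libraries correlated best.

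The members' median in PNO against control was -0.0035 with the marker covariates (36 negative) and -0.24 without the bulb-raised libraries, where PNO 2 alone is left and is assumed to vary like the other groups; leaving out each library gave -0.19 to -0.13. In IUO against control, 15 members were negative with the covariates and 9 without the striatal-raised libraries (median 0.17), and 20 to 62 with each library left out (median -0.12 to 0.06). In IUO against PNO the median was 0.31 without the striatal-raised libraries, 16 members were negative with the length trend removed, and 2 to 18 with each library left out (median 0.04 to 0.22).

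In PNO against control, log2 fold changes changed sign for Mrpl44 (0.0159, 0.0167 and 0.0150 by limma with 0.5, 0.1 and 1; 0.11 with covariates; 0.0486 without the striatal-raised libraries; 0.0310 with the length trend removed; -0.0617 to 0.0366 with each library left out). Mrpl58 gave 0.0012 by limma, 0.19 with covariates, 0.0304 without the bulb-raised libraries, 0.11 with the trend removed and -0.0780 to 0.0123 with each library left out. Mrpl10 gave -0.00561 without the bulb-raised libraries and -0.0408 to 0.0678 with each library left out. With covariates, Mrpl12 gave 0.16, Mrps18c 0.22 and Mrps18b 0.0341 (0.0571 with the trend removed). The causes were not tested. For Mrps23 in PNO against control, the adjusted p ran from 0.062 (without IUO 4) to 1 (covariates, log2 fold change -0.11).

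Each group had 4 animals from 2 dams. Pooled over the 3 groups, IUO 4 included, the members' median varied between libraries of a group with an SD of 0.14. This SD describes single libraries. It is not the error of the members' median log2 fold change of -0.15 in PNO against control, which compares groups of 4. The spread was also not the same in each group. The library medians ran from -0.04 to 0.13 in control, from -0.17 to -0.02 in PNO and from -0.11 to 0.37 in IUO. The Mrps17 row lies inside another gene model, and how reads were divided between the 2 rows was not tested.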
